A study of Tursiops truncatus with 31 samples.

Results

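The actin cytoskeleton regulators described here are the genes of the RSEM genome table whose names belong to the families of actin, thymosin, cofilin, twinfilin, the Arp2/3 complex and its activators, the coronins, the capping and severing proteins, formins and Ena/VASP, and the filamins, calponins, tropomyosins and plastin. They were picked by gene name alone, and 49 of the 9610 genes of the table were members. The 49 rows carried 48 names, because ACTB stood for 2 gene identifiers. PFN1, TMSB4X, ARPC4 and ACTG1 matched no row and were not analysed here. Blood of 4 healthy bottlenose dolphins was sampled through the year, and RNA-seq was run on 31 libraries after most globin RNA had been removed. The females were Keo (12 years old, 9 libraries) and Pele (28 years old, 7 libraries), and the males were Hua (5 years old, 8 libraries) and Kai (17 years old, 7 libraries). The study took July to September as summer and December and February as winter, which left 4 summer and 4 winter libraries for each sex and 15 libraries from other months. No animal received a treatment under the labels. Each sex is 2 animals, so sex cannot be told apart from the individual animals, and libraries of 1 animal are repeats over time. The p-values therefore measure the spread between libraries of these 4 animals.

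Actin filaments grow from monomers held ready by small binding proteins, branch where the Arp2/3 complex is switched on, lengthen at tips kept by formins and Ena/VASP, and stop or break where capping and severing proteins bind. White blood cells rely on this turnover to crawl, to engulf particles and to form contacts with other cells, and platelets rely on it to change shape. Mature mammalian red cells keep only short actin filaments in their membrane skeleton.

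Levels are given as the deposited FPKM (fragments counted per length of transcript and per library size), as mean ± SD over 31 libraries unless stated. Apart from library size, the deposited values were not scaled between libraries. The 100 most abundant genes held 69.6% ± 6.61 of the summed FPKM in female libraries (n = 16) and 77.4% ± 4.97 in male libraries (n = 15). A scale factor from the median ratio of each library to the others ran from 0.573 (Kai, February) to 1.59 (Pele, December), and averaged 1.16 ± 0.229 in female and 0.898 ± 0.210 in male libraries. Each comparison was therefore also made on values divided by this factor, called scaled FPKM. In whole blood, fewer cells of a type and less RNA per cell cannot be told apart. The study set a target for read depth, but how many reads each library yielded is not given in the sources used here.

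The 2 actin entries held 37.6% ± 3.69 of the members' summed FPKM and the 4 genes of monomer binding and turnover 19.9% ± 5.46, more than any other role. The first ACTB entry (ENSTTRG00000001953, beta-actin) averaged 5308 ± 1524 FPKM and ranked 41 of all genes. The second (ENSTTRG00000006433) averaged 725 ± 236 FPKM, and the first exceeded it in all 31 libraries, with a ratio of mean levels of 7.32. How reads were divided between these entries, or with other actin genes, cannot be seen from the table, so each is uncertain. TMSB10, a thymosin that binds actin monomers, averaged 2076 ± 873 FPKM and ranked 89. CFL1 (cofilin, which severs and disassembles old filaments) averaged 699.5 ± 221.5 FPKM.

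The level of TMSB10 depended on the quantification more than that of any other member. In the Cufflinks table of the same libraries it averaged 24.8 FPKM, 83.7 times less than in the RSEM table. The other 45 members present in both tables had ratios between 1.84 and 5.08, beside a median of 2.59 over 7852 shared genes, and 8 genes of all had a larger ratio than TMSB10. Its RSEM level is therefore best read as uncertain. TMSB10 gave 2076 of the 3121 FPKM that monomer binding and turnover averaged, so the share and rank of that role are uncertain too. The shares of the other roles are taken of the same sum and carry the same limit. Twinfilin showed a wide gap between paralogs, with TWF2 at 342 ± 113 FPKM and TWF1, which also binds monomers and caps filament ends, at 2.81 ± 2.97 FPKM and listed at 0 in 6 libraries.

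The Arp2/3 complex builds filament branches, and 8 of its subunit genes were measured. ARPC1B (623 ± 229.9 FPKM), ARPC3 (523 ± 132 FPKM) and ARPC2 (435 ± 103 FPKM) were among the 10 highest members, and ARPC5L was the lowest subunit at 40.3 ± 20.0 FPKM. The complex held 13.9% ± 1.21 of the members' summed FPKM, between 11.0% and 16.3% in single libraries. Its activators were far lower. WAS, the activator named for Wiskott-Aldrich syndrome and restricted to blood cells, was the highest of 4 at 25.9 ± 11.9 FPKM, and WASF2, a WAVE protein, the lowest at 9.09 ± 5.40 FPKM. Together these activators and their partner WIPF1 held 0.387% ± 0.161 of the members' sum.

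The 6 coronins and coactosin held 12.5% ± 2.26 of the members' summed FPKM. CORO1A, the main coronin of white blood cells, averaged 1063 ± 405 FPKM, and COTL1, the coactosin-like protein that binds filaments, averaged 917 ± 401 FPKM. CORO1B was the lowest of these at 5.28 ± 4.21 FPKM. Among the capping and severing genes CAPG, a filament-end capper of macrophages and neutrophils, averaged 271 ± 99.2 FPKM, GSN (gelsolin, which severs and caps) 246 ± 99.9 FPKM, and CAPZA2, a capping protein subunit, 54.9 ± 17.1 FPKM. VASP, which protects growing filament tips from capping, averaged 363 ± 137 FPKM, its relative EVL 41.5 FPKM with a range of 2.50 to 71.5 FPKM, and the formin DIAPH2 2.21 ± 1.07 FPKM. LCP1 (L-plastin, the filament bundler of white blood cells) averaged 515 ± 175 FPKM and CNN2, a calponin that binds filament sides, 433 ± 129 FPKM, while TPM2, a tropomyosin of muscle, stood at 3.16 ± 2.74 FPKM.

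A few members carry a family name but work elsewhere. ACTR1A, ACTR1B and ACTR10 are parts of dynactin, the partner of the dynein motor, and averaged 23.7 ± 10.5, 8.26 ± 4.81 and 60.6 ± 17.8 FPKM. ACTR5, ACTR6 and ACTR8 are subunits of chromatin remodelling complexes and averaged 10.1 ± 5.15, 7.65 ± 5.52 and 10.8 ± 4.31 FPKM. CFLAR, which regulates caspase-8 in cell death, was caught by the name rule alone and averaged 48.0 ± 14.1 FPKM.

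In all, 19 members averaged at least 100 FPKM and 11 averaged under 10 FPKM, and 37 of 49 lay above the median of all genes (10.1 FPKM). 44 members were above 0 in every library. Their coefficient of variation over libraries had a median of 40.8%, beside 52.4% over all genes. After scaling it was 31.8%, beside 47.6%, with no matching of levels. The steadiest members after scaling were ARPC2 (14.0%), the first ACTB entry (16.4%) and LCP1 (17.9%), and the most variable was TWF1 (96.6%).

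**Figure D1:**
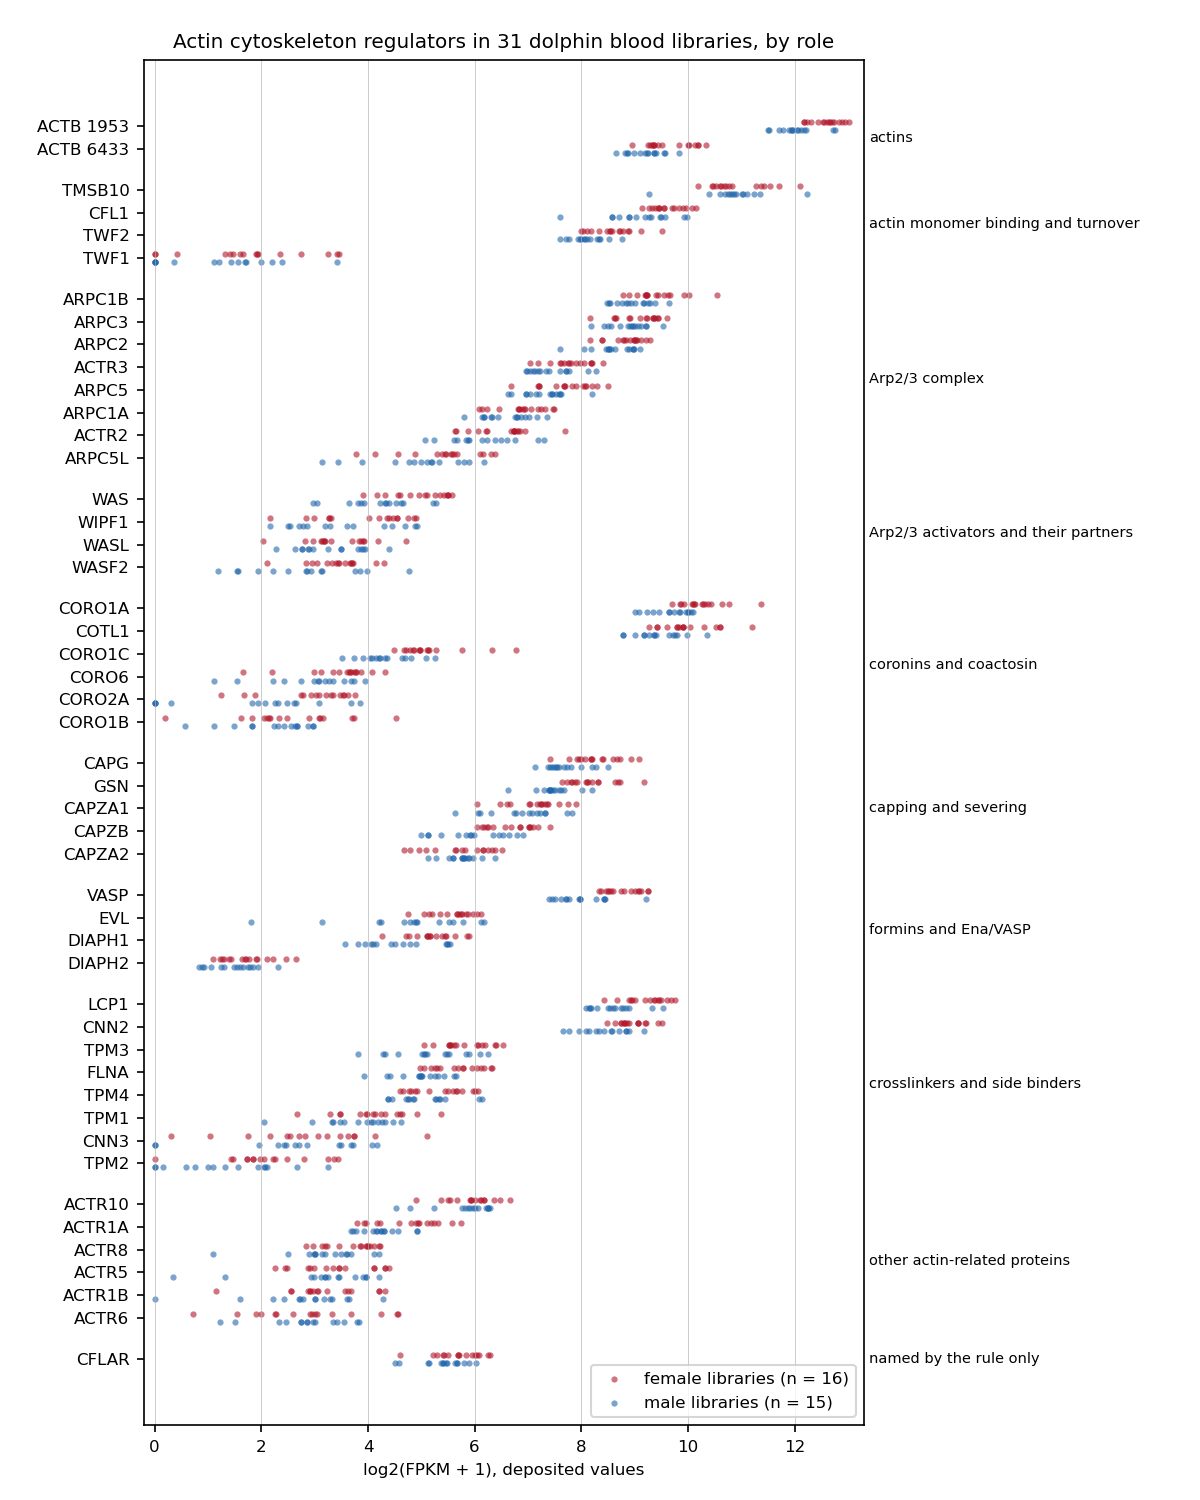
Each point is 1 library, on a log2(FPKM + 1) axis of the deposited values, with 48 members down the page grouped by role and the 16 female libraries drawn above the 15 male ones. The 2 ACTB entries are told apart by the end of their identifiers, and the first of them lies highest of all members, and most Arp2/3 subunits lie above the Arp2/3 activators.

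The first comparison asked how levels differed between the sexes. On the deposited values 18 of 49 members were higher in females and 0 lower, at an adjusted p under 0.05 in limma over all genes, beside 12.1% of all 9610 genes higher and 0.937% lower. At an unadjusted p under 0.05 there were 26 of 49 members, beside 3074 of all 9610 genes. The median log2 difference (female minus male, on log2(FPKM + 1)) was 0.47 over members and 0.34 over all genes, so most of the members' shift was shared with the table as a whole. 34 of 49 members lay above the median of all genes. The members' share of the summed FPKM was 1.43% ± 0.372 in female libraries and 0.938% ± 0.241 in male libraries. On scaled values 0 of 49 were called in limma, beside 0.593% of all genes higher and 1.82% lower. There were 9 of 49 members at an unadjusted p under 0.05, beside 1318 of all 9610 genes. The median log2 differences were 0.10 over members and 0.039 over all genes.

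VASP, the filament tip protein, had the lowest p of the members on the deposited values. It measured 319.8, 436 and 609 FPKM (lowest, median and highest) in female libraries, against 167, 248 and 590.0 FPKM in male libraries. All 16 female libraries lay above the male median, although 4 of 15 male libraries exceeded the lowest female one. Its log2 difference was 0.79 (SE 0.15, adjusted p = 0.00124), or 0.46 above the median of all genes, and on scaled values it was 0.42 (SE 0.14, adjusted p = 0.0997). WAS measured 14.0, 33.0 and 46.9 FPKM in females and 6.87, 18.9 and 37.5 FPKM in males, a log2 difference of 0.78 (adjusted p = 0.0169). DIAPH1, a formin that lengthens unbranched filaments, measured 18.3, 35.0 and 58.6 FPKM in females and 10.85, 21.85 and 45.15 FPKM in males (log2 difference 0.62, adjusted p = 0.0386). On scaled values WAS gave 0.43 (adjusted p = 0.357) and DIAPH1 0.26 (adjusted p = 0.533). ARPC1B was the only Arp2/3 subunit of 8 called, beside 12.1% of all genes called higher in females. It measured 437, 639 and 1482 FPKM in females and 358, 490.0 and 795 FPKM in males (log2 difference 0.47, adjusted p = 0.0312). On scaled values its difference was 0.092 (adjusted p = 0.788).

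Among cappers and severers 3 of 5 members were called, beside 12.1% of all genes called higher in females. GSN measured 198, 276 and 578 FPKM in female libraries, against 98.1, 171 and 294 FPKM in male libraries, and all 16 female libraries again lay above the male median. The log2 difference was 0.72 (SE 0.14, adjusted p = 0.00204), and 0.35 on scaled values (adjusted p = 0.164). CAPZB, the beta subunit of capping protein, measured 64.9, 108 and 169 FPKM in females and 30.9, 59.6 and 119 FPKM in males (log2 difference 0.70, adjusted p = 0.0157). CAPG had a smaller difference of 0.56 (adjusted p = 0.0144). CAPZB fell to 0.34 (adjusted p = 0.371) and CAPG to 0.19 (adjusted p = 0.592) on scaled values. The alpha subunit CAPZA2 did not follow CAPZB. It measured 24.7, 54.3 and 90.0 FPKM in females and 33.7, 54.3 and 82.8 FPKM in males, with a log2 difference of -0.039 on deposited and -0.41 on scaled values (adjusted p = 0.888 and 0.163). CAPZA2 was singled out after its values were seen.

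CORO1C, a coronin found in many cell types, had the highest log2 difference of the called members. It measured 21.5, 30.4 and 109 FPKM in female libraries, against 10.35, 17.7 and 37.0 FPKM in male libraries, a difference of 0.84 (SE 0.20, adjusted p = 0.00757). The 2 highest values belonged to Pele in July and August, and without these 2 libraries, an alternative chosen after seeing the data, the difference was 0.65 (adjusted p = 0.0177). CORO1A measured 834, 1170.0 and 2634 FPKM in females and 514, 852 and 1092 FPKM in males, a difference of 0.60 (adjusted p = 0.00625). COTL1 measured 619, 957 and 2343 FPKM in females and 438, 659 and 1314 FPKM in males, a difference of 0.57 (adjusted p = 0.0245). The highest value of both belonged to Keo in February. On scaled values CORO1C gave 0.48 (adjusted p = 0.257), CORO1A 0.22 (adjusted p = 0.319) and COTL1 0.19 (adjusted p = 0.628).

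Both ACTB entries were called, with log2 differences of 0.57 (adjusted p = 0.00262) and 0.46 (adjusted p = 0.0292). The first (ACTB ENSTTRG00000001953) measured 4622, 6310.2 and 8349 FPKM in female libraries and 2900.1, 4005 and 6899.9 FPKM in male libraries. CFL1 (0.52, adjusted p = 0.0345) and TWF2 (0.48, adjusted p = 0.0203) were called among the monomer-binding genes, whereas TMSB10 measured 1169, 1707 and 4363 FPKM in females and 615, 1858 and 4777 FPKM in males, a difference of 0.084 that turned to -0.29 on scaled values (adjusted p = 0.780 and 0.575). On scaled values the ACTB entries gave 0.20 and 0.081, CFL1 0.15 and TWF2 0.10 (adjusted p = 0.386, 0.798, 0.688 and 0.715).

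Of 9 crosslinkers and side binders 4 were called, beside 12.1% of all genes called higher in females. FLNA, the filamin that crosslinks filaments into gels, measured 30.5, 52.1 and 78.8 FPKM in female libraries and 14.2, 30.8 and 49.2 FPKM in male libraries (log2 difference 0.70, adjusted p = 0.00991). TPM3 (0.64, adjusted p = 0.0368), LCP1 (0.60, adjusted p = 0.00757) and CNN2 (0.54, adjusted p = 0.0103) were the others, and their values overlapped between the sexes. On scaled values FLNA gave 0.34, TPM3 0.28, LCP1 0.23 and CNN2 0.17 (adjusted p = 0.273, 0.482, 0.260 and 0.536). The study listed CNN2 among transcripts nearly absent in males, from an assembly made without the genome. The CNN2 gene entry used here averaged 355 FPKM in male libraries, so the measures are unlike.

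**Figure D2:**
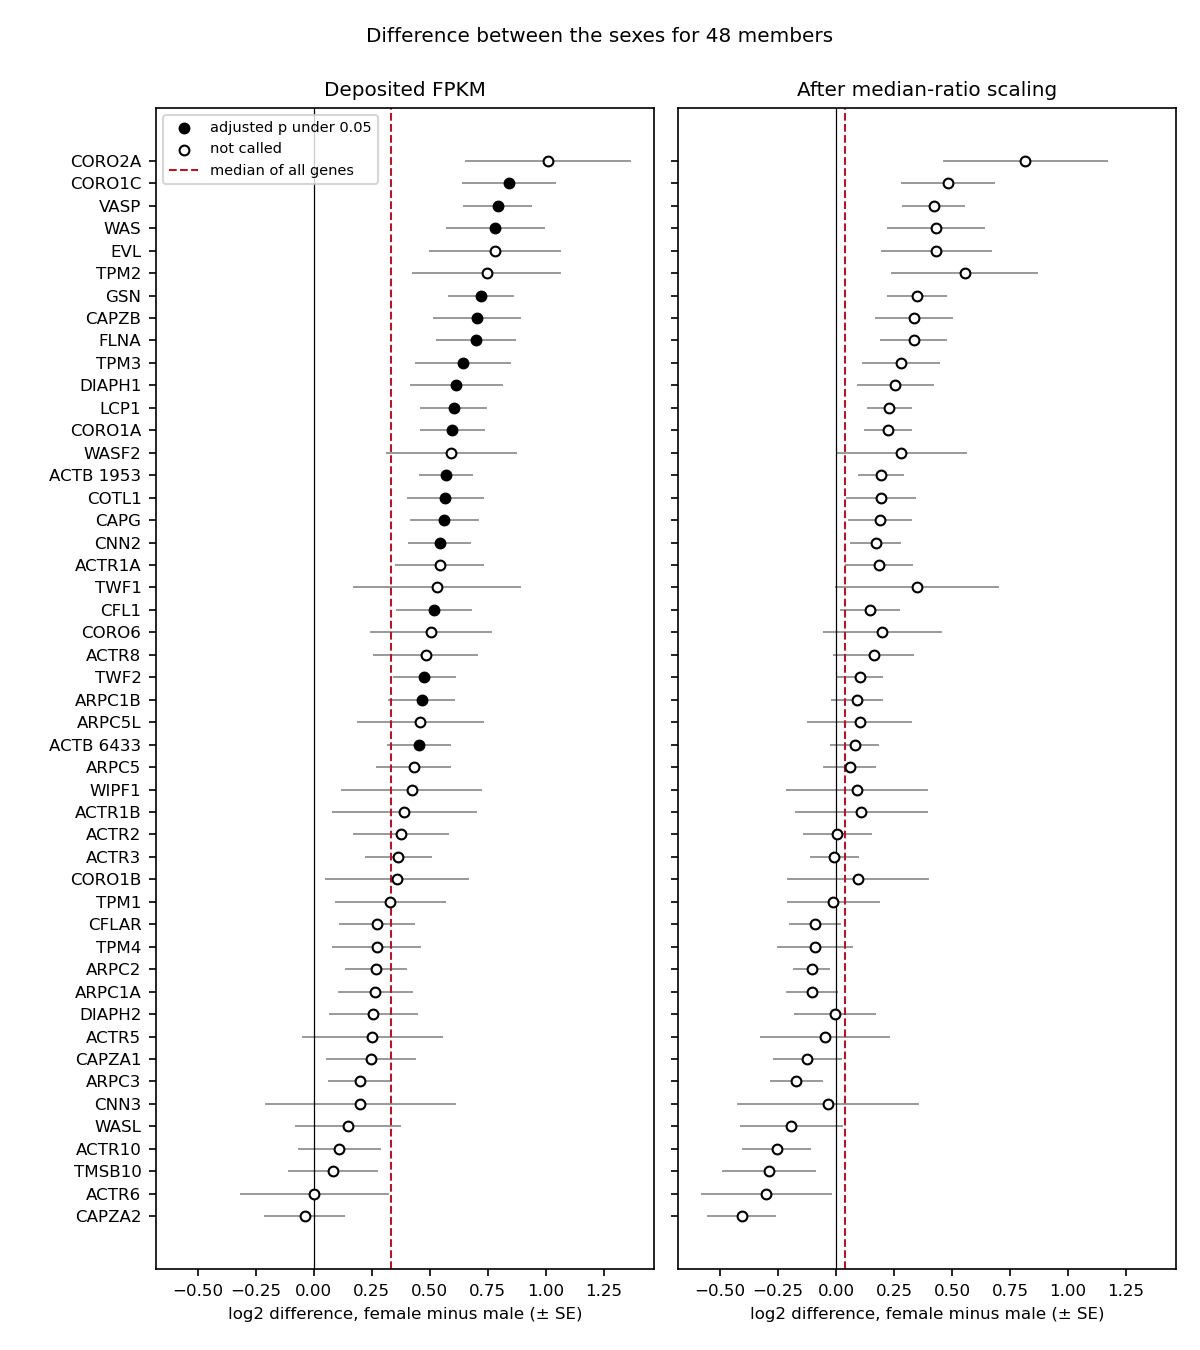
Log2 differences (female minus male, ± SE) of 48 members on deposited FPKM at left and scaled FPKM at right, in the same order in both. Filled points passed an adjusted p under 0.05 (18 at left, 0 at right), and the dashed line is the median of all genes (0.34 at left, 0.039 at right).

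Neutrophil markers were the marker list with the most members higher in females. Of 21 listed neutrophil markers 14 were measured, none of them at 0 in every library, and 11 of 14 were higher in females on deposited values against 1 of 14 on scaled values (NCF1, a NADPH oxidase subunit, log2 difference 0.62, adjusted p = 0.0105). Their summed level ran from 6934 to 19252 FPKM (median 10606) in female libraries and from 3659 to 9643 FPKM (median 6817) in male libraries. Scaled, it ran from 4758 to 17717 (median 9378) in females and from 4998 to 11143 (median 6952) in males. Of the other white cell markers 3 of 10 for monocytes, 2 of 13 for T cells and 0 of 9 for B cells were higher in females on deposited values, and 1, 0 and 0 on scaled values. The summed scaled level averaged 23244 ± 7904 in females and 24255 ± 6558 in males for monocyte markers, 546 ± 95.1 in females and 562 ± 227 in males for T cell markers, and 321 ± 79.4 in females and 403 ± 245 in males for B cell markers. Platelet markers had 2 of 7 higher in females on deposited and 1 of 7 on scaled values. Erythroid markers went the other way, with 3 of 15 lower in females on deposited and 4 of 15 on scaled values. Beside these lists, 12.1% of all genes were higher and 0.937% lower in females on deposited values. On scaled values 0.593% of all genes were higher and 1.82% lower. The part of any of these lists in the members' difference was not tested. Because the sexes are 2 animals each, exchanging animals cannot give a p under 0.333. On animal means 0 of 49 members were called in limma, and leaving out 1 animal left 10 called without Hua, 11 without Kai, 5 without Keo and 4 without Pele. These counts are of members only, with no share of all genes, and each fit without an animal had fewer libraries. GSN was called each time (adjusted p = 0.00346 to 0.0442), VASP was not called without Keo (adjusted p = 0.0523), and CORO1C was not called without Hua or Pele (adjusted p = 0.0810 and 0.0775).

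Motor and linker genes around the actin machinery were measured as well. Of 24 measured myosins and membrane linkers 15 were higher and 0 lower in females on deposited values, beside 12.1% and 0.937% of all genes. On scaled values 0 were called either way, beside 0.593% of all genes higher and 1.82% lower. MYL9, a myosin light chain of platelets and smooth muscle (1.12, adjusted p = 0.0433), and ZYX, a protein of adhesion sites (0.94, adjusted p = 0.0137), had the highest called differences, and MYL12A, another light chain (0.46, adjusted p = 0.0140), and MYO1F, a myosin of blood cells (0.50, adjusted p = 0.0355), the lowest. This list was chosen with earlier results of these data known.

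The second comparison asked how levels differed between the 4 animals, by an F test over all libraries. On deposited values 11 of 49 members were called, beside 10.3% of all genes, and on scaled values 6 of 49, beside 7.34%. EVL, VASP, GSN and LCP1 were called on both. CORO1C, the first ACTB entry, CORO1A, FLNA, CAPG, TPM2 and CNN2 were called on deposited values, and ACTR3 and TPM4 on scaled values.

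EVL set Kai apart. It measured 2.50, 7.83, 17.4, 29.4, 17.9, 26.6 and 28.9 FPKM in the libraries of Kai from February, April, May, June, July, September and December. The ranges elsewhere were 34.5 to 68.2 FPKM in Keo, 25.8 to 58.0 FPKM in Pele and 24.5 to 71.5 FPKM in Hua. Scaled, EVL averaged 20.9 ± 9.45 in Kai (n = 7), against 47.1 ± 8.10 in Keo (n = 9), 36.6 ± 8.83 in Pele (n = 7) and 48.6 ± 10.4 in Hua (n = 8). The highest scaled value of Kai (29.8) lay below every value of Keo and of Hua and within the range of Pele. The adjusted p over animals was 0.00272 on deposited and 0.00152 on scaled values, and 0.288 on scaled values when Kai was left out, an alternative chosen after seeing the data. As both sexes hold 2 animals, the sex difference of EVL followed the same animal. It was 0.78 (adjusted p = 0.0621) with all animals, 1.59 (adjusted p = 0.00253) without Hua and 0.080 (adjusted p = 0.851) without Kai.

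EVL is known from lymphocytes among other cells, and B cell markers were also low in Kai. The summed scaled level of 9 measured B cell markers ran from 117 to 222 in Kai, against 239 to 438 in Keo, 164 to 381 in Pele and 457 to 822 in Hua. Kai thus overlapped Pele in these markers, and lay below Keo and Hua. The T cell markers (13 measured) summed to 297 to 546 in Kai, against 436 to 672 in Keo, 408 to 754 in Pele and 363 to 1199 in Hua, so that Kai overlapped every other animal. No measured marker of either list was at 0 in every library. Blood parameters were also measured quarterly in the study. It reported a lower lymphocyte percentage in Kai than in the other animals, below the normal range for dolphins. The part of these markers or of that percentage in the level of EVL was not tested.

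ACTR3, the Arp2/3 subunit on which new filaments are nucleated, separated the 2 males once values were scaled. It averaged 249 ± 24.7 in Kai, with a range of 217 to 287, and 162 ± 24.8 in Hua, with a range of 124 to 196, so that these males did not overlap. Keo (187.9 ± 17.0) and Pele (207 ± 18.9) lay between them. The adjusted p over animals was 0.00120 on scaled and 0.0711 on deposited values, where the means were 214 ± 54.8 FPKM in Keo, 247 ± 58.9 FPKM in Pele, 151 ± 26.9 FPKM in Hua and 210.4 ± 66.4 FPKM in Kai. Its sex difference on scaled values was -0.0067. Its partner ACTR2, which completes the nucleating pair, had an adjusted p of 0.0985 over animals on scaled values. ACTR3 over ACTR2 within a library averaged 1.28 ± 0.353 on the log2 scale, with animal means from 1.26 to 1.29.

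TPM4, a tropomyosin of non-muscle cells, was higher on scaled values in Pele (44.9 ± 9.14) and Kai (48.5 ± 13.9) than in Keo (29.8 ± 7.86) and Hua (30.7 ± 5.43), with an adjusted p over animals of 0.0162, against 0.0710 on deposited values. VASP, GSN and LCP1 had their lowest scaled mean in Hua. Scaled VASP averaged 424 ± 86.2 in Keo, 364.6 ± 91.5 in Pele, 260.4 ± 63.8 in Hua and 349 ± 97.1 in Kai. Scaled GSN averaged 273 ± 66.3 in Keo, 254 ± 63.9 in Pele, 176 ± 37.7 in Hua and 246 ± 46.5 in Kai. Scaled LCP1 averaged 531 ± 60.7 in Keo, 527 ± 82.4 in Pele, 391 ± 45.7 in Hua and 531 ± 76.4 in Kai. The adjusted p over animals was 0.0357 for VASP, 0.0338 for GSN and 0.0189 for LCP1 on scaled values. Without Hua, an alternative chosen after seeing the data, these became 0.567, 0.881 and 0.995, and 1 member of 49 was called. As Hua held the lowest mean of each, weaker differences were built into this choice. ACTR3 had 0.0544 without Hua and 0.152 without Kai. ACTR3, TPM4 and LCP1 in this comparison were named after their values were seen.

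**Figure D3:**
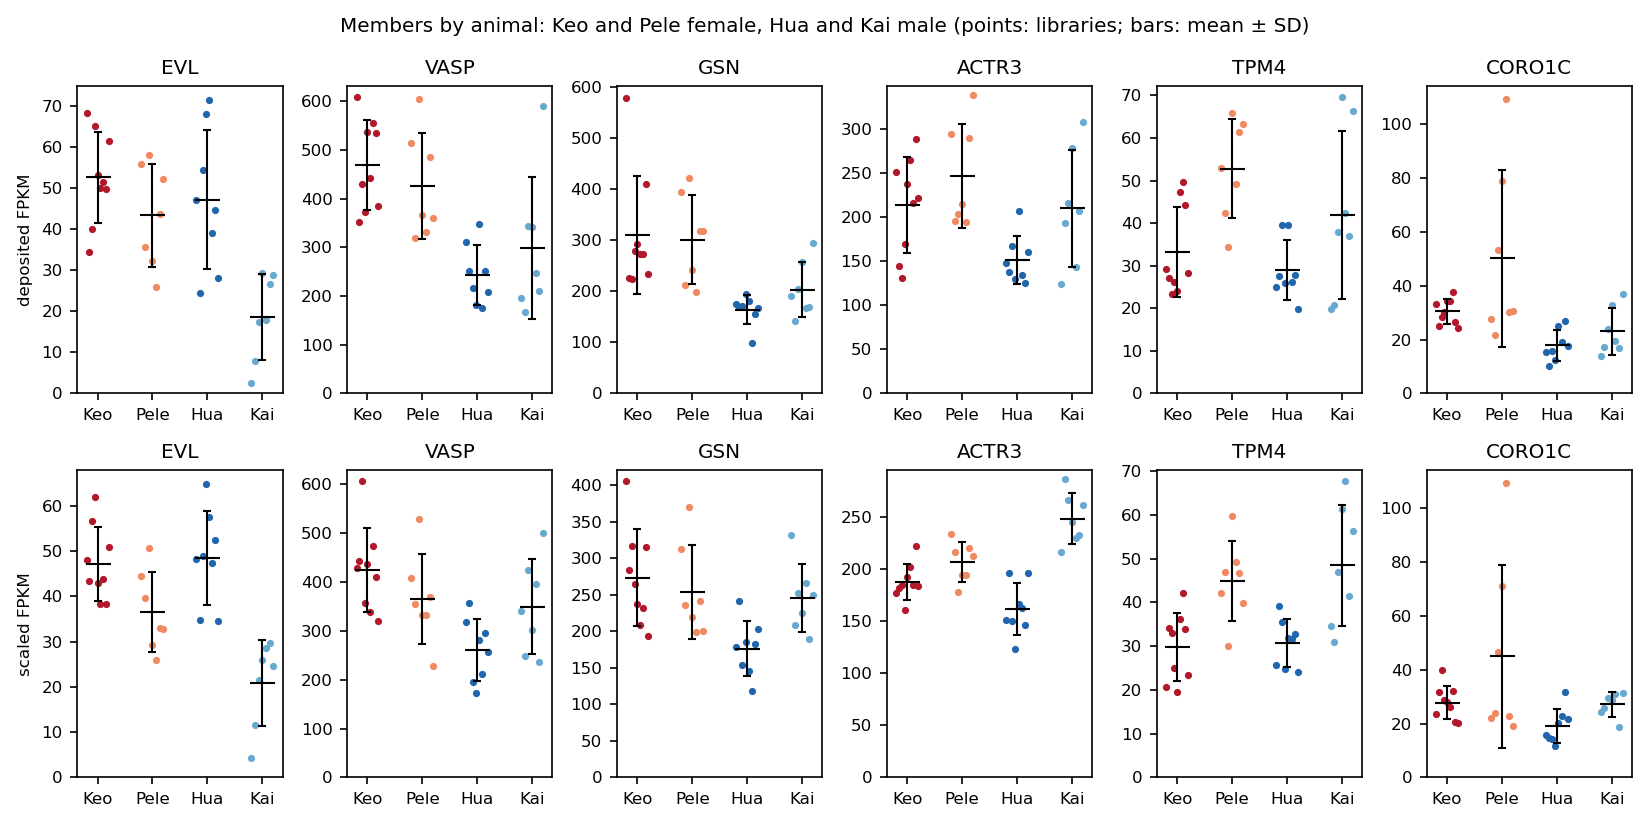
FPKM of 6 members in every library (points) with mean ± SD (bars), deposited above and scaled below, for the females Keo and Pele and the males Hua and Kai. EVL is low in Kai in both rows, ACTR3 separates Hua and Kai in the lower row, and 2 libraries of Pele carry the highest CORO1C.

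Over all members the order of animals depended on scaling. On deposited values the lowest animal mean belonged to Hua in 28 members and to Kai in 21, and the highest to Pele in 32 and to Keo in 17. In 34 of 49 members both females exceeded both males. These orders were counted for members only, with no share over all genes. On deposited values the median of all genes was also higher in females, by a log2 difference of 0.34. The counts are therefore not read as particular to the members. On scaled values Hua still had the lowest mean in 26 members, while the highest was spread over Keo (13), Pele (14), Hua (9) and Kai (13), and both females exceeded both males in 13 members and lay below both in 6. The February library of Kai held the lowest deposited value of 16 members and had the smallest scale factor. Keo in February and Pele in December held the highest of 12 and 11 members.

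Ratios of related members within a library do not depend on how libraries are scaled, apart from the added 1 FPKM. ARPC1B exceeded ARPC1A, the other form of this Arp2/3 subunit, in all 31 libraries, by 2.47 ± 0.307 on the log2 scale, with animal means of 2.57 in Keo, 2.56 in Pele, 2.28 in Hua and 2.47 in Kai. ARPC5 exceeded ARPC5L in all 31 libraries by 2.35 ± 0.779, and its animal means spread more widely, from 1.80 ± 0.662 in Hua to 3.02 ± 0.607 in Kai, with 2.54 ± 0.843 in Keo and 2.08 ± 0.369 in Pele. The ratio of the forms of the fifth subunit thus had the wider spread between libraries.

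TPM3 and TPM4 were close, and TPM3 was the higher in 23 of 31 libraries. Their log2 ratio averaged 0.67 ± 0.493 in Keo, 0.26 ± 0.486 in Pele, 0.35 ± 0.377 in Hua and -0.14 ± 0.364 in Kai. EVL lay below VASP in all 31 libraries. This ratio averaged -3.14 ± 0.341 in Keo, -3.28 ± 0.287 in Pele, -2.38 ± 0.584 in Hua and -4.11 ± 0.901 in Kai, so the males lay on either side of the females. These ratios are descriptions, with no test.

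**Figure D4:**
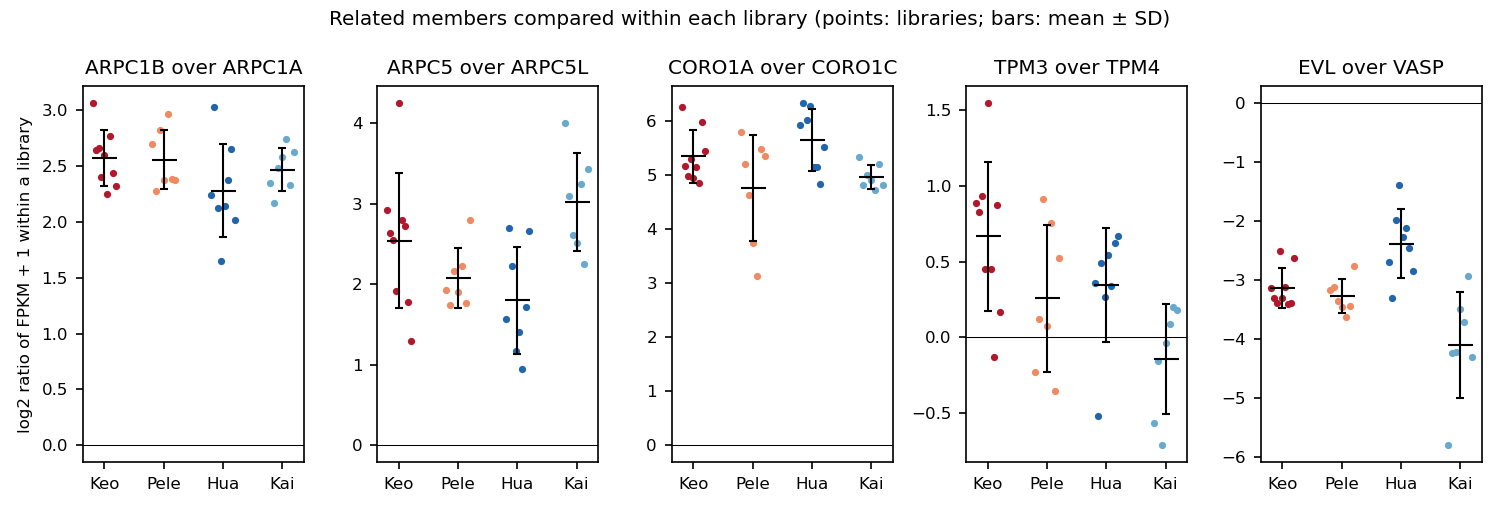
Log2 ratio of FPKM + 1 between related members within each library (points, with mean ± SD), by animal, females at left. EVL over VASP is highest in Hua and lowest in Kai, and TPM3 over TPM4 averages below 0 in Kai alone of the 4 animals.

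The last comparisons asked whether levels followed the season. These fits held no term for the animal. Female summer libraries were Keo in August and Pele in July, August and September. Female winter libraries were February and December of both. Animal and season were therefore partly mixed in females. Between summer and winter 0 of 49 members were called in limma, and 0% of all 9610 genes. The same held within males, within females, for the contrast of the sexes' seasonal changes and for an annual cosinor, a sine curve with a period of 1 year fitted to all 31 libraries, each with 0 of 49 members and 0% of all genes. At an unadjusted p under 0.05 there was 1 member between summer and winter, 0 within males, 1 within females, 0 for the contrast of the sexes and 3 for the cosinor, and on scaled values 3, 2, 1, 0 and 7. Of all 9610 genes, the counts in the same order were 285, 149, 481, 233 and 729, and on scaled values 576, 335, 547, 308 and 673.

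COTL1 had the smallest p between summer and winter. In females it measured 1044, 891, 619 and 1258 FPKM in summer, against 2343, 912, 1554 and 954 FPKM in winter. In males it measured 659, 439.5, 581 and 514 FPKM in summer, against 862, 673, 658 and 1314 FPKM in winter. The seasons overlapped in females, while in males a single summer library exceeded the lowest winter one. The log2 difference (summer minus winter) was -0.58 (SE 0.27, unadjusted p = 0.0427, adjusted p = 0.999), and -0.49 on scaled values (adjusted p = 0.788). ARPC5 came next, at -0.47 (adjusted p = 0.999), followed by WIPF1, which binds and stabilises the WAS protein, at 0.77 (adjusted p = 0.999). WIPF1 measured 25.8, 15.2, 22.2 and 8.87 FPKM in summer and 6.89, 19.5, 3.47 and 28.0 FPKM in winter in females, and 20.9, 6.27, 29.4 and 12.1 FPKM in summer and 5.51, 3.46, 4.67 and 24.9 FPKM in winter in males. The December values of Keo, Pele and Kai stood above their own February values. The same 3 members had the smallest p within males. The study itself reported seasonal transcripts, among them coactosin and a coronin in males, both with a peak in cooler months. Its calls came from another test, on transcripts assembled from the reads without the genome, so they are not the same measure as these.

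Within females CORO1C had the smallest p, at 34.1, 78.7, 109 and 30.1 FPKM in summer, against 33.3, 24.4, 27.6 and 30.4 FPKM in winter (log2 difference 0.90, adjusted p = 0.853). The 2 high values were the July and August libraries of Pele, and leaving out the August library gave 0.57. The second ACTB entry (-0.48) and COTL1 (-0.53) came next. Where the females' seasonal change was set against that of the males, EVL (-1.51) and CORO6 (-1.15), a coronin known from neurons, had some of the smallest p, each with an adjusted p of 1.00. EVL measured 50.05, 32.2, 25.8 and 43.6 FPKM in summer and 68.2, 61.5, 56.0 and 52.3 FPKM in winter in females. In males it measured 71.5, 39.2, 17.9 and 26.6 FPKM in summer and 47.2, 28.2, 2.50 and 28.9 FPKM in winter. Without the February library of Kai, at 2.50 FPKM, the contrast for EVL was -0.69.

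In the cosinor the smallest p on deposited values belonged to CAPZA2, WIPF1 and CAPZA1, the other alpha subunit of capping protein, with amplitudes of 0.34, 0.58 and 0.36 on the log2 scale (adjusted p = 0.643 for each). On scaled values COTL1 had the smallest p, with an amplitude of 0.34 and a fitted peak at day 46.4 of the year (adjusted p = 0.618).

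**Figure D5:**
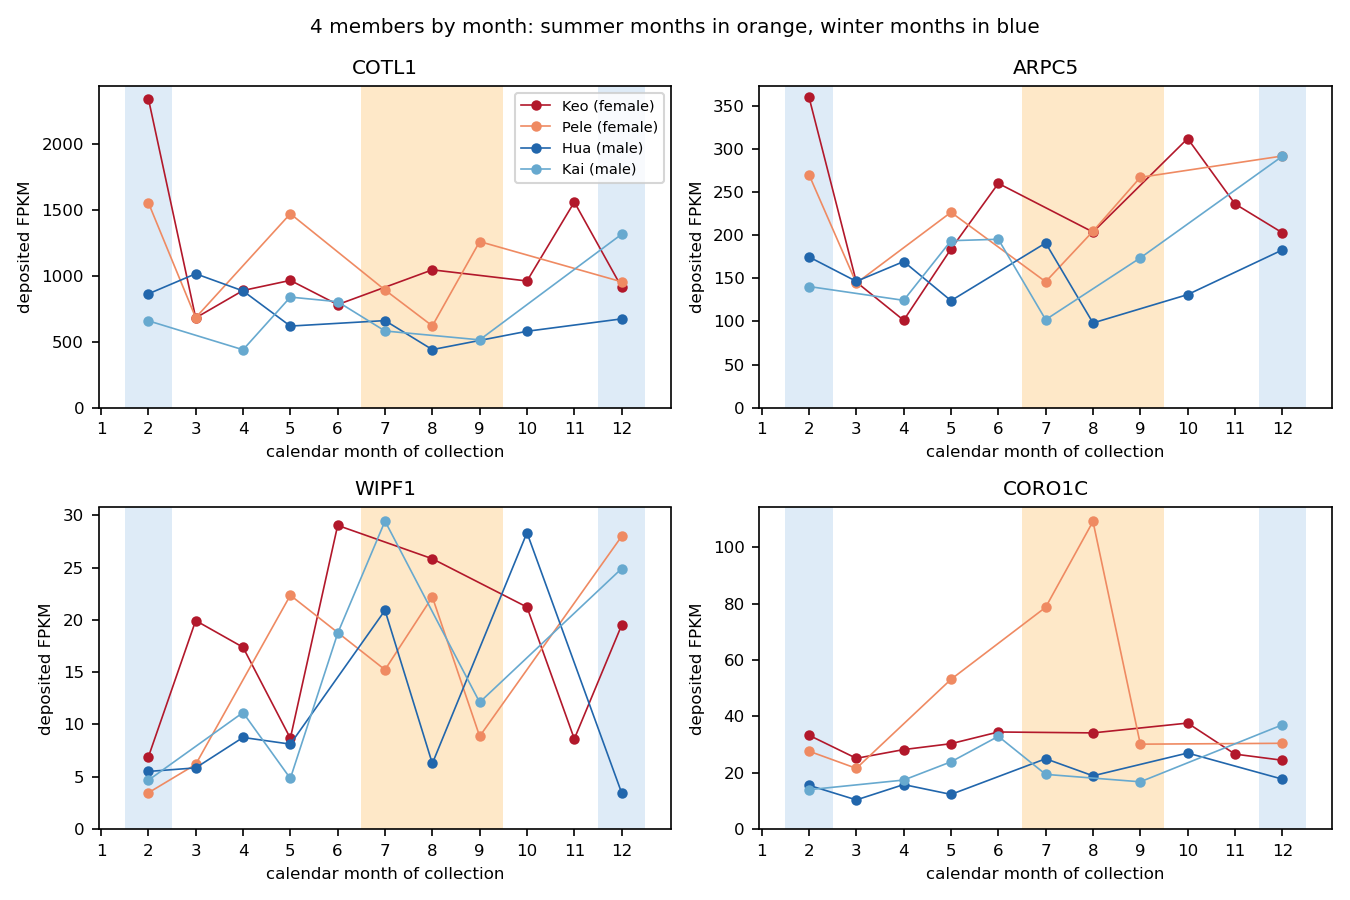
Deposited FPKM of COTL1, ARPC5, WIPF1 and CORO1C by calendar month in each animal, with summer months shaded orange and winter months blue. COTL1 peaks in February in Keo and Pele, and CORO1C is high in July and August in Pele alone.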

How the data were processed

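The authors trimmed reads with Trimmomatic, mapped them to the Ensembl dolphin genome turTru1 and deposited FPKM from RSEM 1.2.18 (9610 genes, mean FPKM of at least 1) and from Cufflinks 2.2.0 (8030 genes, 48 members by the same names). Of 48 member names 47 matched a RefSeq symbol; no coordinates or sequences were used. A de novo table and the authors' EBSeq results (log2 fold changes with a posterior probability) were not used here.

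Members and lists were chosen with earlier results of these data known. The limma package (3.58.1, under R 4.3.3) was fitted two-sided with a mean-variance trend to log2(FPKM + 1), with Benjamini-Hochberg adjustment over all 9610 genes and a call at 0.05. This scale understates changes of low genes. The median-ratio factor used 6105 genes. Named members were the 10 highest means, the called members with the 8 highest and 8 lowest differences (or 8 smallest p of the F test, or 3 smallest p where none was called), ACTB, CNN2, which the study names, COTL1 and CORO1A, since it writes of coactosin and a coronin, the highest and lowest of each role, and members with another known role. Of the pathway list, the 2 highest and 2 lowest called in the sex comparison were named. The main seasonal and cosinor fits held no term for the animal. The animal, given by the labels, served as a block in an alternative fit. The correlation of summer and winter deviations was 0.0982 for Keo, 0.130 for Pele, 0.338 for Hua and 0.347 for Kai. Alternatives were another pseudocount (0.1), a mean FPKM of at least 5, no trend, Cufflinks values, other scalings and leaving out animals or libraries. Some results, including those of 1 member, are not reported here, though that member stays in the counts. The fit was tested on simulated data.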

Additional observations from a re-analysis of the deposited data

Results flagged for a closer look

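For 43 members, 8 groups of 4 to 9 libraries each (the 4 animals and each sex in summer and winter) were searched for a library far from the others, 344 groups in all. In 15 of them a library stood out, and chance gives about 5% of groups. The search was made on deposited values only. In the August library of Hua, GSN was at 98.1 FPKM (next lowest 156 within Hua, 167 among male summer libraries), the first ACTB entry at 2900.1 FPKM (next lowest 3808), CORO2A at 0.24 FPKM (next lowest male summer library 4.60) and TMSB10 at 4777 FPKM (next highest 2398.5 within Hua). In the July library of Kai, CAPZA1 was at 66.0 FPKM (next lowest male summer library 149), ACTR10 at 26.5 FPKM in both groupings (next lowest 53.6 within Kai and 62.0 in male summer) and ACTR5 at 0.27 FPKM (next lowest male summer library 9.98). This library had a scale factor of 0.626. Scaled, CAPZA1 was at 105 (next lowest 128) and ACTR10 at 42.3 (next lowest 50.5 within Kai and 53.2 in male summer), so both lay closer to the others. Scaled ACTR5 stayed apart at 0.431 (next lowest 11.2). Within Hua, CAPG reached 294 FPKM in April (next highest 212) and CAPZA2 was at 37.8 FPKM in May (next lowest 47.4). CORO6 reached 10.7 FPKM in the July library of Hua (next highest male summer library 7.45) and was at 2.14 FPKM in the July library of Pele (next lowest 7.66). ACTR8 was at 6.12 FPKM in the March library of Pele (next lowest 12.1) and TMSB10 at 2755 FPKM in the September library of Pele (next highest female summer library 1552).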

How the results depend on the processing

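The count of members higher in females, 18 on deposited values, was 0 after median-ratio scaling and 0 on animal means. It was 4 to 11 with each animal left out (10 without Hua, 11 without Kai, 5 without Keo and 4 without Pele). Chosen after seeing the data, scaling by the sum outside the 100 most abundant genes gave 2 (VASP, adjusted p = 0.0261, and GSN, adjusted p = 0.0471), and leaving out the 2 smallest and 2 largest scale factors gave 5. The other alternatives gave 15 to 21. The 11 members called between the 4 animals became 6 after median-ratio scaling and 5 with the sum outside the 100 most abundant genes. On median-ratio values without Hua, Kai, Keo or Pele, also chosen after seeing the data, the counts were 1, 2, 6 and 6. Apart from median-ratio scaling with all animals, these alternative counts were of members only, with no share of all genes. A drop in them cannot be told apart from fewer calls in the table as a whole. TMSB10's sex difference of 0.084 (up to 0.26 without Hua) turned negative at -0.29 with median-ratio scaling, -0.051 in Cufflinks values, -0.069 without Kai, -0.21 with the sum outside the 100 most abundant genes and -0.082 without the extreme scale factors. That of CAPZA2 (-0.039, and -0.15 without Pele) turned positive at 0.0048 without Kai and 0.10 without Keo. The causes were not tested. With the animal as a replicate block, the members called by season, within either sex, for the difference between the sexes or for the cosinor stayed at 0, as under every other alternative tried for these 5 counts, and members lower in females also stayed at 0. The reads obtained per library are not known here, 5.13% of all values were 0, and a comparison of 4 summer with 4 winter libraries a sex limits what a seasonal change can show.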
